A study of Mus musculus with 48 samples.

Results

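The genes described here encode collagen chains, and they were taken as every gene whose symbol in the annotation of the array reads Col, a number, the letter a and a number. There were 36 of them among the 12393 genes tested, and each was represented by the probe set with the highest mean signal over the 48 arrays. By role they comprised 9 fibrillar chains, 8 chains of the basement membrane and 19 others. The others were 3 chains of type VI, 9 fibril-associated chains, 3 transmembrane chains, 2 chains of short chain networks, and Col7a1 and Col26a1. The rule for membership reads symbols alone, although the family was picked with earlier results of these data known.

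RNA from the lungs of 48 male C57BL/6 mice was measured with 1 Affymetrix microarray per animal, in 6 groups of 8. Regular weight mice (RW) ate a diet with about 5 kcal% fat, and diet-induced obese mice (DIO) one with 60 kcal% fat, begun at an age of 6 weeks and kept for 9 weeks before exposure. From 15 weeks of age, mice of both diets breathed filtered air as sham controls, mainstream cigarette smoke, which is drawn through the cigarette, or sidestream smoke, which leaves its burning end. Exposure was through the nose alone for 5 hours a day, 8 times over 2 weeks (5 days, a rest of 2 days, then 3 days), and lungs were taken on the next day. The groups are thus RW in air, DIO in air, RW in mainstream smoke, DIO in mainstream smoke, RW in sidestream smoke and DIO in sidestream smoke. The labels' account of the diets also mentions an LPS study, and whether any of these animals had LPS is not stated.

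Collagens are trimers of chains wound into a triple helix and secreted into the extracellular matrix. Types I, III and V assemble into the fibrils that give the lung its tensile strength, type IV forms the sheet under epithelium and endothelium on which alveolar walls rest, and type VI forms beaded microfilaments between fibrils and basement membranes. Fibroblasts are the main source of fibrillar collagen in the lung, while endothelial and epithelial cells also make type IV chains.

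The stretches of DNA just upstream of the RefSeq starts of 3 chains that rose in mainstream smoke are given first. Each stretch holds a match to a different promoter motif, in capitals. The 3 were taken from the chains whose start used is also the outer bound of the gene. Whether the motifs bear on the rise was not tested. The sequences are RefSeq's for GRCm38.p6 and hold 120 bases each. The Col3a1 stretch is chr1:45311418-45311537 (+ strand) with a match to TATAAA, the TATA box motif. This match lies 117 to 112 bases upstream of the start used. The Col1a2 stretch is chr6:4505498-4505617 (+ strand) with CCAAT. The Col6a1 stretch is chr10:76726045-76726164 (- strand) with a match to TGANTCA, the AP-1 motif.
Col3a1: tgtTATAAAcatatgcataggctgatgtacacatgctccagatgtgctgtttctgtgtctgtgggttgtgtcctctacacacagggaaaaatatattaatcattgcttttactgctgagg
Col1a2: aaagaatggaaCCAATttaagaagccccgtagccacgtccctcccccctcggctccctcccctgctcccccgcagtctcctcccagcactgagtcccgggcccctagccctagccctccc
Col6a1: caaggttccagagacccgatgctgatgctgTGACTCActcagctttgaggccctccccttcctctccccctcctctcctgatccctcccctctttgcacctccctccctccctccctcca

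Windows of 250 bases upstream of 1 RefSeq start per gene were at hand for 27 of the 36 chains, and not for Col1a1, Col2a1, Col4a3, Col5a2, Col9a3, Col12a1, Col14a1, Col22a1 and Col26a1. On both strands, TATAAA was found in 5 of the 27 windows and in 12.4% of 32851 windows of all genes. CCAAT was found in 11 of the 27 and in 33.8% of all windows. GGGCGG, the GC box, was found in 15 of the 27 and in 32.7% of all windows. TGANTCA was found in 1 of the 27, that of Col6a1, and in 6.7% of all windows. For 10 of the 27 chains that start is the outer bound of the gene in RefSeq, and for the others part of the window can lie within another transcript. A match describes the letters and is not evidence of a bound factor. None of the 4 motifs spells another.

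Several chains lie side by side in the genome, with 6 pairs of members that have no other protein-coding gene between their starts. These are Col3a1 with Col5a2, Col4a3 with Col4a4 and Col9a1 with Col19a1 on chromosome 1, Col4a1 with Col4a2 on chromosome 8, Col6a1 with Col6a2 on chromosome 10, and Col4a5 with Col4a6 on chromosome X. By the RefSeq starts used for these windows, Col4a1 (- strand) and Col4a2 (+ strand) begin head to head, and their first 22 bases overlap, at chr8:11312805-11312826 (GRCm38.p6). The starts of Col4a5 and Col4a6 used for their windows have 1342 bases between them, and other RefSeq starts of these genes give other distances.

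In what follows, a level is the deposited log2 signal, and a difference is the difference of 2 group means of such levels, with its standard error after ±. Every group had n = 8. P values are limma's, adjusted by Benjamini-Hochberg over the 12393 genes of a comparison, and a gene was called, or said to rise or fall, at an adjusted p below 0.05. Of the 36 chains, 26 had a mean above 6.33, the limit of the dim-gene filter. The other 10 were Col2a1, Col5a3, Col9a1, Col9a2, Col10a1, Col11a1, Col11a2, Col19a1, Col22a1 and Col26a1, several of which are cartilage collagens. Defining cartilage markers were low too, with Matn1 at 2.94 to 3.65 and Comp at 4.53 to 5.56. Lung markers were high, with Sftpc of alveolar type 2 cells at 14.97 to 15.13 and the fibroblast marker Pdgfra at 10.53 to 11.84.

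There were 5 arrays that stood apart, with a mean correlation to the other arrays between 0.954 and 0.979. That of the other 43 arrays was 0.986 or more. The arrays that stood apart were 2 of DIO mice in air, 2 of DIO mice in mainstream smoke and 1 of RW mice in sidestream smoke. Among the DIO mice in air, animal 3 had a skeletal muscle score of 6.27 and a squamous epithelium score of 6.55, and animal 7 a thymocyte score of 5.52 and an adipocyte score of 4.09. A score is the mean deviation, in log2, of a list's genes from their means over all arrays. In DIO mice in mainstream smoke, animals 1 and 6 had interferon response scores of 4.49 and 4.31. RW animal 6 in sidestream smoke had an adipocyte score of 4.38. Values without these 5 arrays are given wherever they alter the call of a chain.

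Fibrillar collagens rose in mainstream smoke against air in both diets, and no fibrillar chain was called in sidestream smoke against air. In DIO mice Col3a1 narrowly missed the threshold in sidestream smoke and was called under several other settings. In RW mice, 11 of the 36 chains were called, where 14.7% of all genes were. Of these chains 10 rose and 1 fell, against 6.61% and 8.07% of all genes. In DIO mice 14 were called, where 21.4% of all genes were, and 12 rose and 2 fell, against 11.7% and 9.76%. The median difference of the 36 chains was 0.16 in RW and 0.12 in DIO mice, and that of all genes -0.03 and -0.02. The RW and DIO comparisons share no animals. None of the 5 arrays that stand apart is of RW mice in air or mainstream smoke. Leaving them out thus changed only the estimate of spread that all groups share, and the 11 calls in RW mice were kept. Without RW animal 7 of mainstream smoke, the calls of Col14a1 (adjusted p = 0.064) and Col6a2 (adjusted p = 0.083) were lost.

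**Figure D1:**
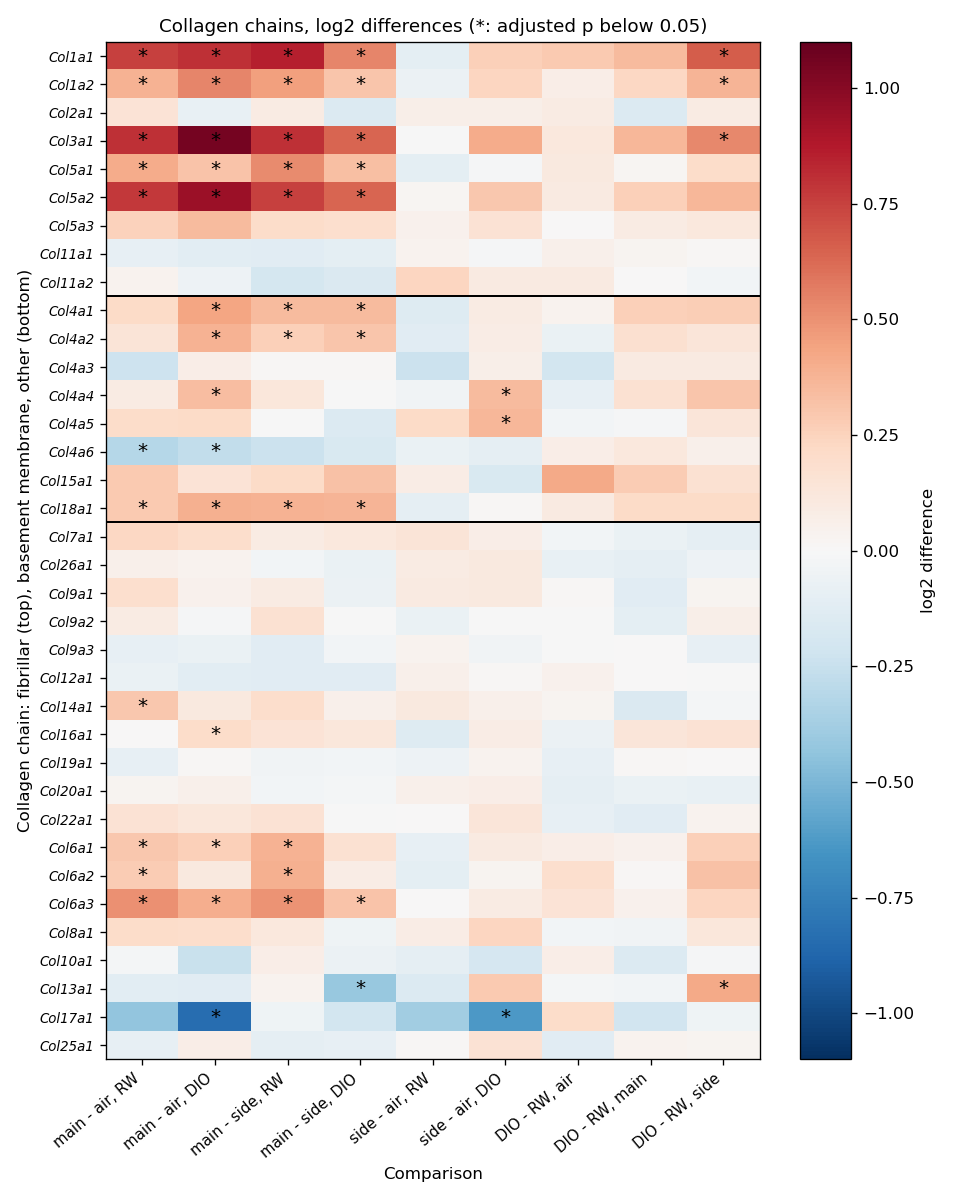
Differences in log2 signal of the 36 collagen chains (rows, grouped as fibrillar, basement membrane and other) in 9 comparisons (columns; main is mainstream smoke, side is sidestream smoke), with red for higher and blue for lower in the group named first and a star for an adjusted p below 0.05. The 4 left columns hold the comparisons with mainstream smoke and most of the stars, in the fibrillar rows above all, and the column of RW mice in sidestream smoke against air holds none.

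Of the 9 fibrillar chains, the same 5 were called in each diet, namely Col1a1, Col1a2, Col3a1, Col5a1 and Col5a2. The median difference of the 9 was 0.39 in RW and 0.34 in DIO mice. Col2a1, Col5a3, Col11a1 and Col11a2 were called in neither diet, and all 4 lay under that limit of 6.33. Col5a3, the rarer chain of type V, differed by 0.34 ± 0.14 in DIO mice (adjusted p = 0.061). It was called there without the 5 arrays (0.42, adjusted p = 0.024), and also without DIO animal 3 in air alone (0.43, adjusted p = 0.013), DIO animal 7 in air alone (0.38, adjusted p = 0.044) or RW animal 6 of sidestream smoke alone (0.34, adjusted p = 0.048).

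Col3a1 encodes the single chain of type III collagen, the pliable partner of type I in lung and vessels. In RW mice its level ran from 11.47 through a median of 11.96 to 12.32 in air and from 12.36 through 12.70 to 13.47 in mainstream smoke. In DIO mice it ran from 11.76 through 12.06 to 12.46 in air and from 12.73 through 13.04 to 13.72 in mainstream smoke. In both diets every array of a smoke-exposed lung lay above every array of a lung in air of the same diet, a separation upward that 2.78% of all genes showed in RW and 3.03% in DIO mice. The difference was 0.81 ± 0.13 in RW (adjusted p = 2.2e-05) and 1.05 ± 0.13 in DIO mice (adjusted p = 3.4e-08), or 1.75-fold and 2.08-fold.

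Col5a2, a chain of the type V collagen that nucleates fibrils, moved with it. Its level in RW mice ran from 9.42 through 9.67 to 9.87 in air and from 9.85 through 10.30 to 11.40 in mainstream smoke, and 7 of the 8 exposed lungs lay above all of those in air. In DIO mice it ran from 9.39 through 9.75 to 10.04 in air and from 10.38 through 10.52 to 11.33 in mainstream smoke, with no overlap. The differences were 0.77 ± 0.14 in RW (adjusted p = 0.00013) and 0.94 ± 0.14 in DIO mice (adjusted p = 2e-06).

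Col1a1 and Col1a2 encode the chains of type I collagen, the most abundant collagen of connective tissue. Col1a1 in RW mice ran from 9.55 through 10.09 to 10.62 in air and from 10.14 through 10.83 to 11.58 in mainstream smoke. In DIO mice its median in air was 10.35 and its highest level 10.79, and it ran from 10.75 through 11.21 to 11.62 in mainstream smoke. The groups overlapped slightly in both diets, with 5 of 8 RW and 6 of 8 DIO lungs above the range in air. The differences of Col1a1 were 0.75 ± 0.16 (adjusted p = 0.0012) in RW and 0.81 ± 0.16 (adjusted p = 0.00023) in DIO mice.

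Col1a2 in RW mice ran from 11.94 through 12.12 to 12.32 in air and from 12.26 through 12.46 to 13.01 in mainstream smoke. In DIO mice it ran from 11.81 through 12.23 to 12.48 in air and from 12.51 through 12.71 to 13.01 in mainstream smoke. The groups overlapped in RW mice, with 5 of 8 smoke-exposed lungs beyond those in air, and did not in DIO mice. The differences were 0.39 ± 0.09 (adjusted p = 0.0035) in RW and 0.54 ± 0.09 (adjusted p = 2.1e-05) in DIO mice.

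Col5a1, the other main chain of type V collagen, rose by less. Its level in RW mice ran from 8.16 through 8.39 to 8.72 in air and from 8.40 through 8.79 to 9.42 in mainstream smoke, and in DIO mice from 8.38 through 8.51 to 8.64 and from 8.58 through 8.89 to 9.13. In each diet 5 of 8 exposed lungs lay above the range in air. The differences were 0.41 ± 0.10 in RW (adjusted p = 0.0040) and 0.32 ± 0.10 in DIO mice (adjusted p = 0.018). Without the 5 arrays that stand apart, the DIO difference of Col5a1 was 0.23 and was not called (adjusted p = 0.17), and without DIO animal 6 of mainstream smoke alone it was 0.28 (adjusted p = 0.055).

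**Figure D2:**
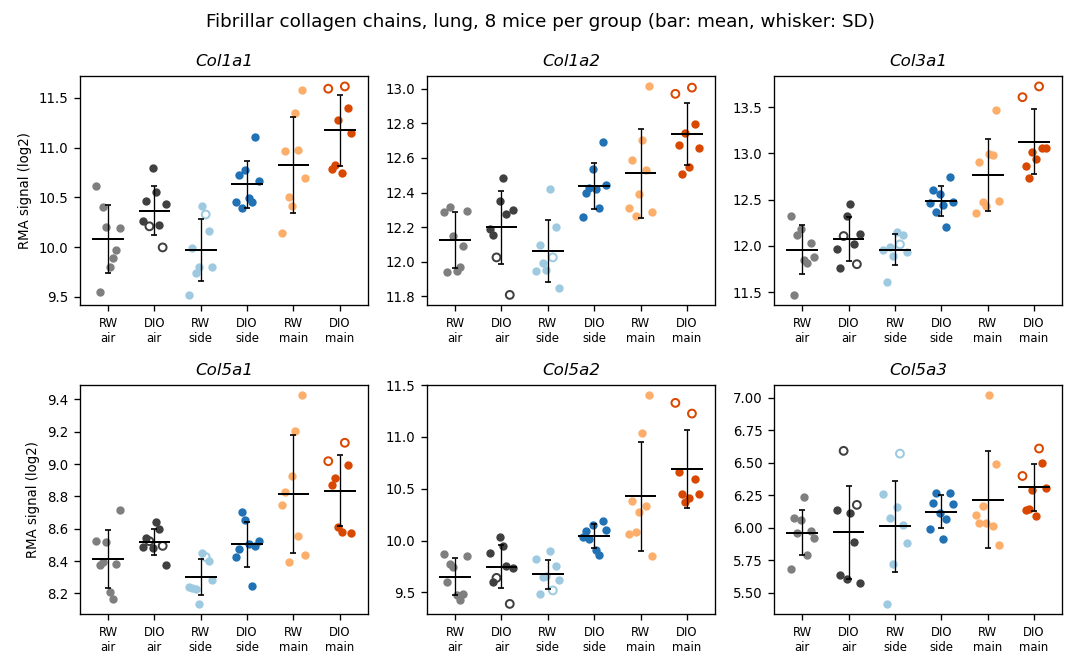
RMA signal (log2) of 6 fibrillar chains in single lungs, by group (RW or DIO; air, side for sidestream, main for mainstream smoke), with a bar for the mean, a whisker for the SD of 8 mice and open circles for the 5 arrays that stand apart. For Col3a1 the lungs in mainstream smoke lie above those in air of the same diet without overlap, while lungs of RW mice in sidestream smoke lie in the range in air.

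Within the groups in mainstream smoke the fibrillar chains were high in the same lungs. Among RW mice, animal 7 had the highest level of Col1a1 (11.58), Col1a2 (13.01), Col3a1 (13.47), Col5a1 (9.42) and Col5a2 (11.40), and the highest interferon response score of the group, 2.24. Among DIO mice, animals 1 and 6 had the 2 highest levels of Col3a1 (13.61 and 13.72) and of Col5a2 (11.33 and 11.23). Both are among the arrays that stand apart, with the interferon response scores given above, and the part of that response in these levels was not tested. Without RW animal 7, the difference of Col3a1 in RW mice was 0.70 and that of Col5a2 0.64, and all 5 fibrillar chains were called (adjusted p from 0.00011 to 0.019). Without the 5 arrays, the DIO differences were 0.83 for Col3a1, 0.66 for Col5a2, 0.57 for Col1a1 and 0.36 for Col1a2, each called (adjusted p from 1.2e-05 to 0.020).

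The second probe sets of Col1a1, Col1a2, Col3a1 and Col5a2 moved the same way in mainstream smoke against air. For Col1a2 the other probe set rose by 0.92 in RW and 0.89 in DIO mice, more than 1.5 times the value above, and for Col1a1 by 1.18 and 1.04. The other probe set of Col3a1 rose by 1.09 and 1.41, and that of Col5a2 by 0.54 and 0.77. Of the 19 chains with several probe sets, none had probe sets called in opposite directions in any of the comparisons. In mainstream smoke against air, probe sets of 7 of the 19 differed in sign in RW mice and of 6 in DIO mice. With the mean of all its probe sets, Col5a1 differed by 0.22 between mainstream and sidestream smoke in DIO mice and was not called (adjusted p = 0.0665).

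Mainstream smoke was also compared with sidestream smoke. Smoke concentrations were not compared here, so the kind of smoke and its dose cannot be told apart. In RW mice 11 of 36 chains were called, where 9.77% of all genes were, and the 11 were higher in mainstream smoke, as 6.05% of all genes were (3.72% were lower). In DIO mice 10 were called, where 16.8% of all genes were, with 9 higher and 1 lower, against 8.83% and 8%. All 5 fibrillar chains named above were higher in both diets. These comparisons share the mainstream groups with those against air, so that their values are set side by side and do not add to each other.

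Col3a1 ran from 11.61 through 11.97 to 12.15 in RW mice in sidestream smoke, below every RW lung in mainstream smoke (difference 0.81 ± 0.13, adjusted p = 2.1e-05). Such a separation upward was seen in 2.97% of all genes. In DIO mice in sidestream smoke it ran from 12.21 through 12.47 to 12.75, and 7 of the 8 lungs in mainstream smoke lay above this range (0.64 ± 0.13, adjusted p = 0.00044). Col1a1 differed by 0.86 ± 0.16 in RW (adjusted p = 0.00022) and 0.54 ± 0.16 in DIO mice (adjusted p = 0.018). Col5a2 differed by 0.75 ± 0.14 (adjusted p = 0.00021) and 0.64 ± 0.14 (adjusted p = 0.0010), and in DIO mice all 8 lungs in mainstream smoke lay above those in sidestream smoke, as in 3.82% of all genes. Col5a1 and Col1a2 differed by 0.52 ± 0.10 and 0.45 ± 0.09 in RW and by 0.33 ± 0.10 and 0.30 ± 0.09 in DIO mice. Without the 5 arrays that stand apart, the DIO calls of Col1a1 (0.40, adjusted p = 0.13), Col1a2 (0.22, adjusted p = 0.12) and Col5a1 (0.25, adjusted p = 0.13) were lost, and those of Col3a1 and Col5a2 were kept. Leaving out DIO animal 1 of mainstream smoke was enough to lose Col1a1 (0.48, adjusted p = 0.057) and Col1a2 (0.27, adjusted p = 0.062). Leaving out animal 6 lost these (0.48 and 0.26, adjusted p = 0.057 and 0.066) and Col5a1 (0.29, adjusted p = 0.057).

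In RW mice, sidestream smoke against air gave 0 calls among the 36 chains by limma, where 2.17% of all genes were called (0.694% higher and 1.48% lower), and 1 chain had an unadjusted p under 0.05. Col3a1 differed by -0.00 ± 0.13, with a 95% interval from -0.27 to 0.27, and Col1a1 by -0.11 ± 0.16, with an interval from -0.44 to 0.22. Both intervals lie below the differences seen in mainstream smoke. The median difference was 0.02 over the 9 fibrillar chains, -0.09 over the 8 basement membrane chains and -0.01 over all genes. Col17a1 was called lower without the 5 arrays that stand apart, as given with that gene.

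In DIO mice, sidestream smoke against air gave 3 calls among the 36 chains, where 6.85% of all genes were called. They were 2 higher and 1 lower, against 4.26% and 2.59% of all genes, and no chain had all 8 lungs above the range in air, as 0.976% of all genes did. The higher ones were Col4a5 (0.37 ± 0.11, adjusted p = 0.040) and Col4a4 (0.35 ± 0.10, adjusted p = 0.029), and the lower was Col17a1 (-0.64 ± 0.20, adjusted p = 0.037). Col4a4 ran from 7.76 through 8.56 to 8.71 in air and from 8.54 through 8.81 to 9.02 in sidestream smoke, with 6 of 8 exposed lungs above the range in air. Animal 7 of the DIO mice in air, an array that stands apart, had the lowest level of both type IV chains in that group, 9.29 for Col4a5 and 7.76 for Col4a4. Without it they differed by 0.27 (adjusted p = 0.12) and 0.25 (adjusted p = 0.090) and were not called, nor were they without the 5 arrays (0.27 and 0.23, adjusted p = 0.074 and 0.11). Col3a1 differed by 0.41 ± 0.13 and missed the threshold (adjusted p = 0.051), with 5 of 8 lungs in sidestream smoke above the range in air. It was called when DIO animal 1 or 6 or RW animal 7 of mainstream smoke, none of them in the groups compared, was left out of the fit (adjusted p = 0.041, 0.035 and 0.032), and with its other probe set (0.67, adjusted p = 0.0086). The dim-gene filter, median centring, a variance trend, array weights, the mean of its probe sets and the compared groups alone also gave a call for Col3a1 (adjusted p from 0.016 to 0.0497). Leaving out the 5 arrays that stand apart did not. Col8a1, a short chain collagen of vessel walls, differed by 0.24 ± 0.08 (adjusted p = 0.053) and was called without DIO animal 6 of mainstream smoke (adjusted p = 0.030) or RW animal 6 of sidestream smoke (adjusted p = 0.048). The median difference was 0.16 over the 9 fibrillar chains and 0.02 over all genes.

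The diets were compared under each exposure, and in air 0 of the 36 chains were called by limma, where 8.28% of all genes were (2.29% higher and 5.99% lower in DIO mice). At an unadjusted p under 0.05 there were 2, Col15a1 (0.42 ± 0.14, adjusted p = 0.057) and Col6a2 (0.18 ± 0.09, adjusted p = 0.20). Col15a1 was highest in DIO animal 7, at 8.00, and was called without DIO animal 6 of mainstream smoke (0.42, adjusted p = 0.049). Col6a2 was called without DIO animal 7 in air (0.25, adjusted p = 0.049) and without the 5 arrays (0.26, adjusted p = 0.044). In mainstream smoke 0 were called as well, where 1.21% of all genes were (0.613% higher and 0.597% lower), and 6 had an unadjusted p under 0.05. All 6 were higher in DIO mice, among them Col3a1 (0.36 ± 0.13, adjusted p = 0.20) and Col4a1 (0.27 ± 0.09, adjusted p = 0.14). Without RW animal 7 of mainstream smoke, Col3a1 differed by 0.46 between the diets and was called (adjusted p = 0.044).

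In sidestream smoke 4 of the 36 chains were called, where 0.976% of all genes were. The 4 were higher in DIO than in RW mice, as 0.654% of all genes were, while 0.323% of all genes were lower. Col1a1 ran from 9.52 through 9.90 to 10.42 in RW and from 10.39 through 10.58 to 11.10 in DIO mice, with 7 of 8 DIO lungs above the RW range (0.66 ± 0.16, adjusted p = 0.032). Col3a1, with the ranges given above, did not overlap (0.53 ± 0.13, adjusted p = 0.037). Col13a1, a transmembrane collagen of cell junctions, did not overlap either, at 9.22 to 9.60 in RW and 9.72 to 9.94 in DIO mice (0.42 ± 0.11, adjusted p = 0.038). Separation of all 8 lungs upward was seen in 0.428% of all genes. Col1a2 was the fourth (0.37 ± 0.09, adjusted p = 0.035).

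These 4 calls lie near the threshold. Without RW animal 6 of sidestream smoke, 1 of them was left, that of Col1a1, with Col1a2 at 0.37 (adjusted p = 0.071), Col3a1 at 0.53 (adjusted p = 0.067) and Col13a1 at 0.39 (adjusted p = 0.096). Without all 5 arrays that stand apart, 7 chains were called, the 4 and Col4a1 (0.27, adjusted p = 0.0499), Col6a1 (0.26, adjusted p = 0.034) and Col6a2 (0.32, adjusted p = 0.020). Col6a2 (0.32 ± 0.09) and Col6a1 (0.26 ± 0.07) had missed the threshold with all arrays (adjusted p = 0.055 and 0.067). Both were called without DIO animal 7 in air alone (adjusted p = 0.022 and 0.033) or RW animal 7 of mainstream smoke alone (adjusted p = 0.035 and 0.045), and Col6a2 without DIO animal 1 of mainstream smoke (adjusted p = 0.045). The second probe sets of Col1a1 (0.50, adjusted p = 0.19), Col1a2 (0.44, adjusted p = 0.082) and Col3a1 (0.38, adjusted p = 0.38) differed the same way and were not called.

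Whether the response to smoke itself differed between the diets was tested as a difference of differences. For mainstream smoke 0 of 36 chains were called by limma, where 0.589% of all genes were higher and 0.299% lower, and 1 had an unadjusted p under 0.05, Col4a2. The response of Col3a1 was 0.25 ± 0.19 larger in DIO mice, with a 95% interval from -0.13 to 0.63, and that of Col1a1 0.06 ± 0.23 larger, with an interval from -0.41 to 0.53. For sidestream smoke 0 were called, where 0.395% were higher and 0.258% lower, and 5 had an unadjusted p under 0.05. Col3a1 was among them at 0.41 ± 0.19 (interval 0.03 to 0.80, adjusted p = 0.36), as was Col13a1 at 0.44 ± 0.15 (adjusted p = 0.20). A difference between the diets in the collagen response is therefore not shown, and the intervals leave room for one.

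Of the 8 basement membrane chains, 1 rose and 1 fell in mainstream smoke against air in RW mice, where 14.7% of all genes were called. In DIO mice 4 rose and 1 fell, where 21.4% of all genes were called. The chain called higher in both diets was Col18a1, whose carboxy-terminal piece is endostatin. Its level in RW mice ran from 8.82 through 9.01 to 9.11 in air and from 9.06 through 9.27 to 9.46 in mainstream smoke, and in DIO mice from 8.84 to 9.40 and from 9.26 through 9.46 to 9.71. Of the exposed lungs, 7 of 8 RW and 5 of 8 DIO lay above the range in air. The differences were 0.28 ± 0.08 (adjusted p = 0.0089) and 0.39 ± 0.08 (adjusted p = 0.00015). Against sidestream smoke they were 0.38 ± 0.08 in both diets (adjusted p = 0.00046 in RW and 0.00033 in DIO mice).

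Col4a1 and Col4a2 encode the chains of the type IV trimer found under nearly all epithelia and vessels. Col4a1 in DIO mice ran from 11.82 through 12.41 to 12.60 in air and from 12.48 through 12.75 to 13.00 in mainstream smoke, with 7 of 8 exposed lungs above the range in air. Col4a2 ran from 11.09 through 11.62 to 11.81 and from 11.67 through 11.98 to 12.20, with 6 of 8 above it. Col4a1 rose by 0.44 ± 0.09 (adjusted p = 0.00022) and Col4a2 by 0.38 ± 0.09 (adjusted p = 0.00066). In RW mice they differed by 0.21 ± 0.09 (adjusted p = 0.11) and 0.14 ± 0.09 (adjusted p = 0.30) and were not called, though the difference between the diets was not called either. With the 5 arrays left out the DIO values were 0.28 and 0.28, both called, and Col4a1 was called in RW mice (0.21, adjusted p = 0.045). Mainstream against sidestream smoke gave 0.35 ± 0.09 for Col4a1 in RW (adjusted p = 0.0064) and 0.34 ± 0.09 in DIO mice (adjusted p = 0.0046). Col4a2 gave 0.26 ± 0.09 in RW (adjusted p = 0.039) and 0.30 ± 0.09 in DIO mice (adjusted p = 0.0099), and its RW call was lost without RW animal 7 of mainstream smoke (0.24, adjusted p = 0.091) or RW animal 6 of sidestream smoke (0.27, adjusted p = 0.051).

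The remaining type IV chains, which form the trimers of specialised basement membranes such as that of the alveolus, did not move as a unit. Col4a6 fell in both diets, from 7.63 to 8.13 in air (median 7.68) to 7.22 to 7.61 in mainstream smoke (median 7.45) in RW mice. All 8 exposed RW lungs lay below every lung in air, as in 2% of all genes. The differences were -0.31 ± 0.09 in RW (adjusted p = 0.010) and -0.27 ± 0.09 in DIO mice (adjusted p = 0.019), and the second probe set gave -0.24 and -0.33. Without DIO animal 1 of mainstream smoke the DIO value was -0.21 and was not called (adjusted p = 0.075). The DIO call was also lost with only the compared groups in the fit (adjusted p = 0.095). Mainstream against sidestream smoke gave -0.23 ± 0.09 for Col4a6 in RW mice (adjusted p = 0.073), which was called without the 5 arrays (-0.24, adjusted p = 0.030). Col4a4 rose in DIO mice by 0.34 ± 0.10 (adjusted p = 0.013) and differed by 0.09 ± 0.10 in RW mice. With only the compared groups in the fit, the DIO call of Col4a4 was lost (adjusted p = 0.135). Col4a3, its partner chain, differed by -0.23 ± 0.12 in RW and 0.07 ± 0.12 in DIO mice and was not called. Col4a5 differed by 0.20 ± 0.11 in RW and 0.21 ± 0.11 in DIO mice, also without a call (adjusted p = 0.25 and 0.19). Col15a1, a collagen that links basement membranes to the fibrils below, differed by 0.29 ± 0.14 in RW and 0.15 ± 0.14 in DIO mice, without a call, and was called in RW mice without the 5 arrays (0.29, adjusted p = 0.049).

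**Figure D3:**
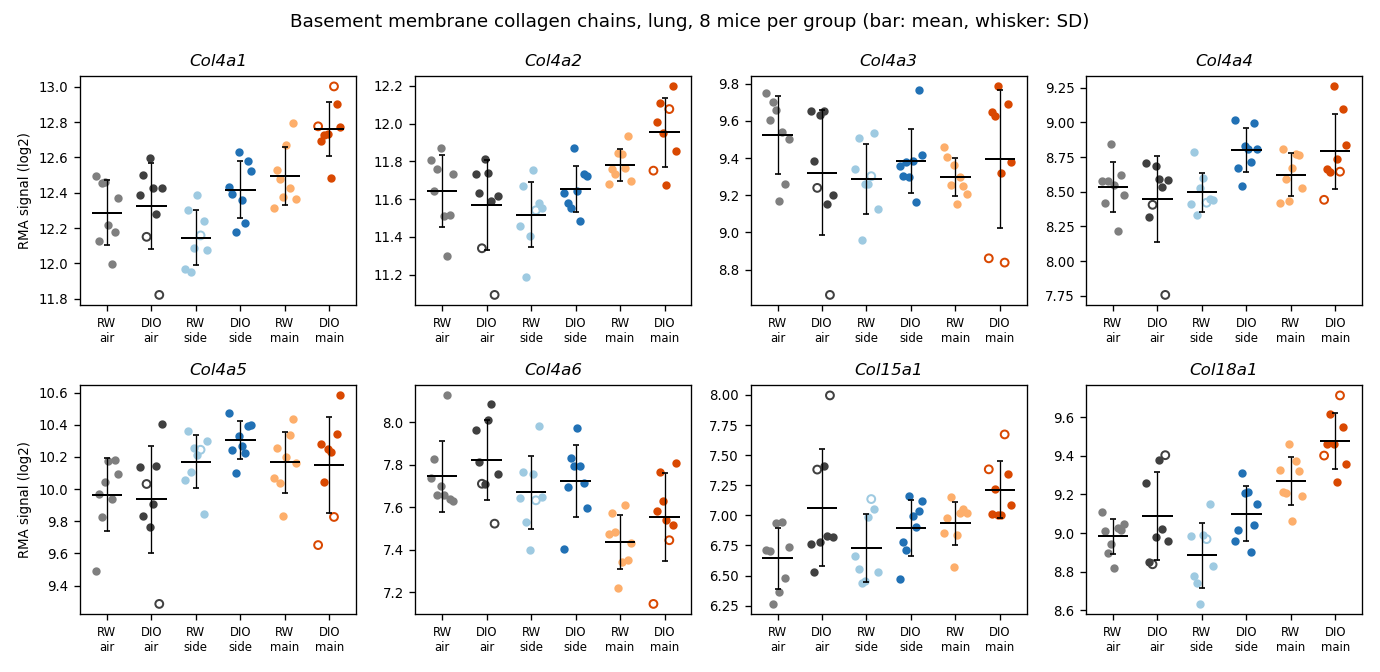
RMA signal (log2) of the 8 basement membrane chains in single lungs, by group, with a bar for the mean, a whisker for the SD of 8 mice and open circles for the 5 arrays that stand apart. Col18a1 sits higher in both mainstream groups, Col4a6 lower, and the lowest points of Col4a4 and Col4a5 in the DIO group in air are the open circle of animal 7.

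Type VI collagen is a trimer of the products of Col6a1, Col6a2 and Col6a3. In RW mice all 3 rose in mainstream smoke against air. Col6a3 ran from 9.58 through 9.88 to 10.14 in air and from 10.09 through 10.29 to 10.85 in mainstream smoke, with 7 of 8 exposed lungs above the range in air (0.50 ± 0.10, adjusted p = 0.00061). Col6a1 ran from 10.68 through 11.04 to 11.20 and from 11.05 through 11.26 to 11.63, with 5 of 8 above (0.29 ± 0.07, adjusted p = 0.0041). Col6a2 rose by 0.28 ± 0.09 (adjusted p = 0.022), and without RW animal 7 its value was 0.22 and was not called (adjusted p = 0.083).

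In DIO mice 2 of the 3 rose. Col6a1 ran from 10.72 through 11.09 to 11.17 in air and from 11.19 through 11.28 to 11.53 in mainstream smoke without overlap, and rose by 0.27 ± 0.07 (adjusted p = 0.0058). Col6a3 rose by 0.40 ± 0.10 (adjusted p = 0.0038). Col6a2 differed by 0.11 ± 0.09 and was not called (adjusted p = 0.41). In DIO animals 1 and 6 of mainstream smoke, which held the highest Col3a1, the levels of Col6a2 were 10.80 and 10.95, the lowest of the group. Those of Col6a3 were 10.15 and 10.38, in a group that ran from 10.15 to 10.74.

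Against sidestream smoke all 3 were higher in RW mice, by 0.38 ± 0.07 for Col6a1, 0.39 ± 0.09 for Col6a2 and 0.50 ± 0.10 for Col6a3. All 8 lungs of Col6a1 in mainstream smoke lay above those in sidestream smoke. In DIO mice Col6a3 was called (0.31 ± 0.10, adjusted p = 0.032), while Col6a1 differed by 0.16 ± 0.07 (adjusted p = 0.12) and Col6a2 by 0.08 ± 0.09 (adjusted p = 0.59).

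Of the 9 fibril-associated chains, which sit on the surface of fibrils and link them to other matrix, 1 was called in each diet and 0 fell, which is no larger a share than the 14.7% of all genes called in RW and 21.4% in DIO mice. Col14a1, which limits the growth of fibrils, was called higher in RW mice at 0.29 ± 0.09 (adjusted p = 0.017), from 8.06 to 8.81 in air and 8.29 to 9.11 in mainstream smoke. The groups overlapped, with 2 of 8 exposed lungs above the range in air. Its other probe set differed by -0.04 (adjusted p = 0.80), and without RW animal 7 the first gave 0.24 and was not called (adjusted p = 0.064). Col16a1 was called higher in DIO mice at 0.20 ± 0.07 (adjusted p = 0.041) and named here after its value was seen. With the 5 arrays left out it differed by 0.16 and was not called (adjusted p = 0.15), nor was it without DIO animal 7 in air (0.14, adjusted p = 0.13) or DIO animal 1 of mainstream smoke (0.21, adjusted p = 0.055). Col9a1, Col9a2, Col9a3, Col12a1, Col19a1, Col20a1 and Col22a1 were called in no comparison.

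Among the transmembrane chains, Col17a1, the hemidesmosome collagen of basal epithelial cells, fell in DIO mice in mainstream smoke by 0.84 on the log2 scale (SE 0.20, adjusted p = 0.0011). It ran from 5.89 through 6.83 to 8.64 in air and from 5.35 through 6.19 to 6.67 in mainstream smoke, with 3 of 8 exposed lungs below the range in air. The 8.64 belongs to DIO animal 3 in air, the array with a squamous epithelium score of 6.55. The next highest lung in air was at 7.09. Without animal 3 alone the difference was -0.60 (adjusted p = 0.0024), and without the 5 arrays -0.53 (adjusted p = 0.00097). The SE rests on the spread in all 6 groups. The SD of Col17a1 was 0.77 in DIO mice in air and 0.49 in mainstream smoke, against 0.11 to 0.24 in the other groups. With only the compared groups in the fit, the call was lost (adjusted p = 0.089). In sidestream smoke against air the DIO value of -0.64 became -0.39 and lost its call without animal 3 (adjusted p = 0.10), and was -0.53 without the 5 arrays (adjusted p = 0.0014). It was not called with only the compared groups in the fit (adjusted p = 0.18). In RW mice Col17a1 differed from air by -0.43 ± 0.20 in mainstream (adjusted p = 0.14) and -0.39 ± 0.20 in sidestream smoke (adjusted p = 0.32). With the 5 arrays left out the RW values were -0.43 and -0.36, both called (adjusted p = 0.0017 and 0.040), and without DIO animal 3 in air alone that in mainstream smoke was called (adjusted p = 0.033). With only the compared groups in the fit, both RW values were called (adjusted p = 0.0062 and 0.034). The comparisons of one diet share their lungs in air.

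Col13a1 was lower in mainstream than in sidestream smoke in DIO mice, by 0.41 (SE 0.11, adjusted p = 0.0049), with all 8 lungs in mainstream smoke (8.99 to 9.70) below those in sidestream smoke. Such a separation downward was seen in 1.98% of all genes. Against air it differed by -0.13 ± 0.11 in DIO mice in mainstream smoke and was called without DIO animal 7 in air (-0.26, adjusted p = 0.012), whose level of 8.60 was the lowest of its group. Col25a1, a transmembrane collagen known from brain, Col7a1, which forms anchoring fibrils, Col26a1, Col8a1 and Col10a1 were not called in any comparison. Col8a1 differed by 0.20 ± 0.08 in RW and 0.19 ± 0.08 in DIO mice in mainstream smoke against air (adjusted p = 0.069 and 0.068) and was called in both without the 5 arrays (0.20 and 0.24, adjusted p = 0.015 and 0.018). Leaving out DIO animal 6 of mainstream smoke alone also gave both calls (adjusted p = 0.042 and 0.011), and leaving out DIO animal 7 in air that in RW mice (adjusted p = 0.043).

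**Figure D4:**
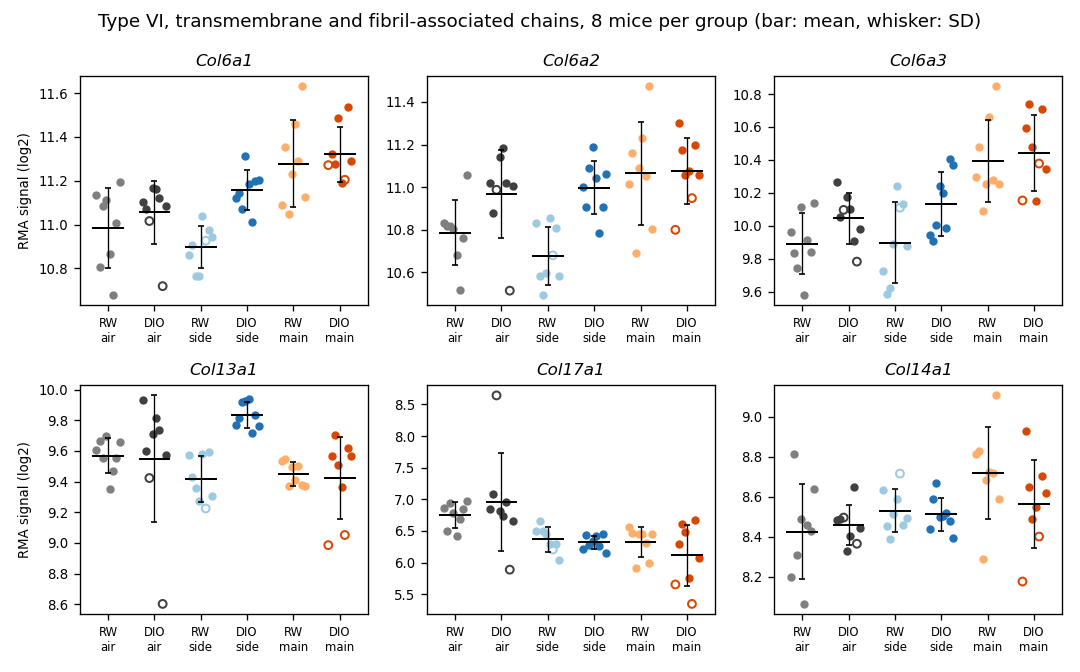
RMA signal (log2) of the type VI chains, Col13a1, Col17a1 and Col14a1 in single lungs, by group, with a bar for the mean, a whisker for the SD of 8 mice and open circles for the 5 arrays that stand apart. Col6a1 and Col6a3 sit higher in both mainstream groups than in air, and the open circle at 8.64 for Col17a1 is DIO animal 3 in air.

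Chains of one collagen type, and Col1a2 with Col3a1 of the mixed fibrils of types I and III, were compared across single lungs, as deviations from the group means over 48 arrays, for 8 pairs. The permutation tests were two-sided, with 100000 permutations within groups and adjustment over the 8 pairs. Col1a1 and Col1a2 correlated with Pearson's r = 0.85 and Spearman's rho = 0.86, Col4a1 and Col4a2 with r = 0.85 and rho = 0.82, and Col6a1 and Col6a2 with r = 0.78 and rho = 0.69. Each had the smallest p that these permutations can give, 1e-05. Without the 2 lungs farthest on the first gene, r was 0.83, 0.82 and 0.69. Col5a1 and Col5a2 gave r = 0.77 (rho = 0.62), Col1a2 and Col3a1 r = 0.80 (rho = 0.77), and Col6a1 and Col6a3 r = 0.66 (rho = 0.67), all at 1e-05 for r.

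The specialised type IV chains were less tightly tied. Col4a3 and Col4a4 gave r = 0.58 (permutation p = 0.00043, adjusted 0.00049) and rho = 0.36 (p = 0.023, adjusted 0.026), and r was 0.47 without the 2 farthest lungs and 0.38 over the 43 arrays that do not stand apart. Col4a5 and Col4a6, whose genes are neighbours on X, gave r = 0.24 (permutation p = 0.14) and rho = 0.08 (p = 0.62), and r was -0.01 without the 2 farthest lungs. All values of a lung come from 1 array, so its RNA and normalization are shared by both genes of a pair.

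**Figure D5:**
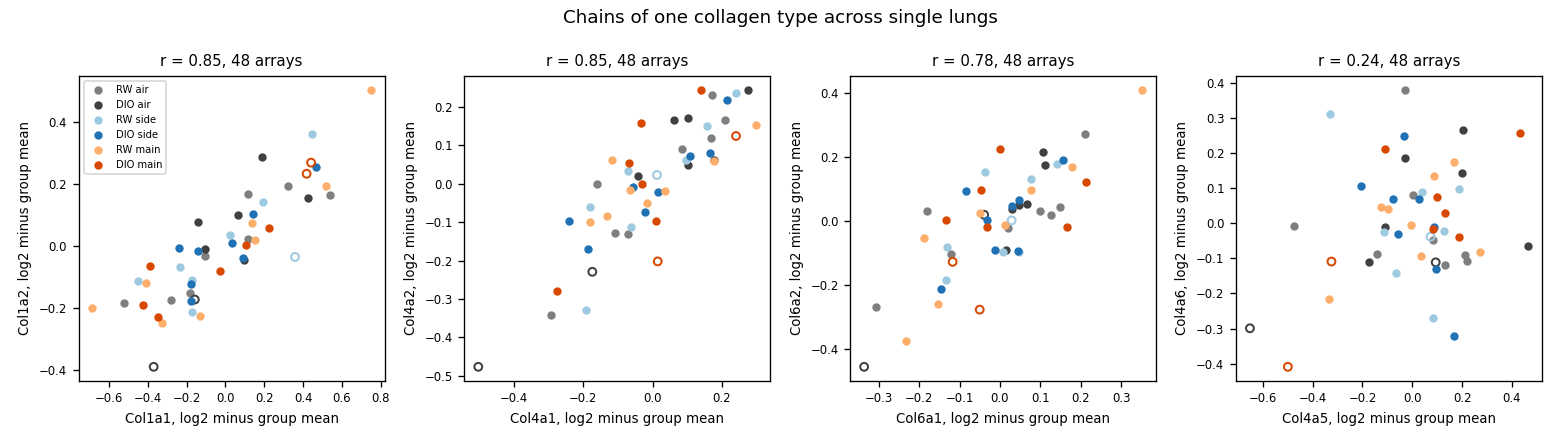
Deviation of each lung from its group mean (log2) for the chains of a pair, over 48 arrays, coloured by group, with open circles for the 5 arrays that stand apart and Pearson's r above each panel. Col1a1 with Col1a2, Col4a1 with Col4a2 and Col6a1 with Col6a2 fall along a line, while Col4a5 with Col4a6 scatter.

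The genes that act on collagen were followed as lists chosen with results of these data known. Their counts in mainstream smoke against air stand beside 6.61% of all genes higher and 8.07% lower in RW mice, and 11.7% and 9.76% in DIO mice. A list of 15 genes held enzymes and chaperones that fold and modify collagen in the endoplasmic reticulum, with Mia3 and Creb3l1 also listed. Of the 15, 2 rose and 0 fell in RW mice in mainstream smoke, near the 14.7% of all genes called. In DIO mice 6 rose and 2 fell, where 21.4% were called. Creb3l1, a transcription factor that acts on the type I genes, rose by 0.41 ± 0.08 in RW and 0.61 ± 0.08 in DIO mice. Colgalt1, which adds galactose to collagen, rose by 0.24 ± 0.06 and 0.41 ± 0.06. Of 9 genes of propeptide processing and crosslinking, 2 rose and 0 fell in RW (14.7% of all genes called), and 4 rose and 1 fell in DIO mice (21.4%). The crosslinking oxidases Lox and Loxl1 rose by 0.60 ± 0.13 and 0.60 ± 0.10 in RW and by 1.11 ± 0.13 and 0.56 ± 0.10 in DIO mice.

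Of the 7 lists of partner genes, the one of collagen breakdown had the largest median difference in both diets, 0.87 in RW and 1.09 in DIO mice. Of its 9 degrading enzymes and inhibitors, 6 rose and 1 fell in each diet, where 14.7% of all genes were called in RW and 21.4% in DIO mice. Ctsk, cathepsin K, rose by 2.99 ± 0.10 in RW and 3.19 ± 0.10 in DIO mice, and Timp1, an inhibitor of metalloproteinases, by 2.23 ± 0.20 and 3.15 ± 0.20. Mmp8, the collagenase of neutrophils, rose by 1.22 ± 0.18 and 1.79 ± 0.18, and Mmp2, a gelatinase, by 1.04 ± 0.08 and 0.84 ± 0.08.

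Of 15 proteoglycans and other fibril partners, 3 rose and 2 fell in RW, and 3 rose and 3 fell in DIO mice. Tnc, tenascin C of remodelling matrix, rose by 1.17 ± 0.26 in RW mice (0.61 ± 0.26 in DIO mice, not called) and Fn1, fibronectin, by 0.54 ± 0.10, while the small proteoglycans Ogn and Fmod fell by 0.51 and 0.33. Of 13 laminins, nidogens and other basement membrane partners, 2 rose in RW mice, Nid1 (0.29 ± 0.08) and Agrn (0.20 ± 0.07), and 3 in DIO mice, shares near the 14.7% and 21.4% of all genes called. Of 6 collagen receptors, Ddr1 rose (0.29 ± 0.06) and Itgb1 fell by 0.20 in RW mice, and 2 rose in DIO mice.

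Of 14 genes of the TGF-beta pathway, a main inducer of fibrillar collagen, 3 rose and 2 fell in RW, and 4 rose and 1 fell in DIO mice. Of all genes, 6.61% were higher and 8.07% lower in RW, and 11.7% and 9.76% in DIO mice. In RW mice Ltbp2 rose by 0.61 ± 0.10 and Ltbp3, which holds latent TGF-beta, by 0.28 ± 0.08, and the co-receptor Tgfbr3 and the inhibitor Smad7 fell by 0.52 and 0.33. The median difference of this list was 0.04 in RW and 0.00 in DIO mice.

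Lung samples hold many cell types, and in them more cells of a type and more RNA per cell cannot be told apart. The marker counts in mainstream smoke against air stand beside 6.61% of all genes higher and 8.07% lower in RW mice. In DIO mice these shares were 11.7% and 9.76%. Of 9 fibroblast markers that are no collagens, 0 were called in RW mice in mainstream smoke by limma (3 at an unadjusted p under 0.05), and 3 fell in DIO mice (Tcf21, Pi16 and Clec3b). The fibroblast score ran from -0.08 to 0.14 in RW mice in air and from -0.15 to 0.11 in mainstream smoke, and from -0.12 to 0.16 and -0.34 to 0.13 in DIO mice. Without the arrays that stand apart, the DIO fibroblast score ran from 0.03 to 0.16 in air and from -0.16 to 0.13 in mainstream smoke. Tcf21 was the nearest to a call in RW mice, at -0.36 ± 0.13 (adjusted p = 0.052). Of 9 smooth muscle and pericyte markers, 0 were called in RW mice (0 at an unadjusted p under 0.05) and 6 fell in DIO mice. The DIO score ran from 0.02 to 0.60 in air and from -0.94 to 0.02 in mainstream smoke. Without the arrays that stand apart, it ran from 0.02 to 0.46 and from -0.25 to 0.02. The RW score ran from -0.23 to 0.16 in air and from -0.26 to 0.06 in mainstream smoke. In air, 6 of the 9 markers were called higher in DIO than in RW mice and 0 lower, beside 2.29% and 5.99% of all genes. That count includes the arrays of DIO mice in air that stand apart. Of 6 interferon response genes, 1 rose in RW and 5 rose in DIO mice, with a score from -0.53 to 2.24 in RW and from 0.02 to 4.49 in DIO mice in mainstream smoke, the latter reaching 0.32 without the arrays that stand apart. Of 5 cell division genes, 4 rose in RW and 5 in DIO mice, and the RW score ran from -1.04 to -0.48 in air and from 0.02 to 1.70 in mainstream smoke without overlap. Of 10 lung endothelium markers, 4 fell in RW and 2 in DIO mice, and of 7 alveolar type 1 markers 3 fell in RW, while 1 rose and 2 fell in DIO mice. Of 7 alveolar type 2 markers, 1 rose and 2 fell in RW and 4 rose in DIO mice. The endothelium score in RW mice ran from 0.03 to 0.35 in air and from -0.36 to 0.03 in mainstream smoke. The part of these shifts in the collagen differences was not tested.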

How the data were processed

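Lung RNA of 48 mice (3 µg per sample) was hybridised to Affymetrix mouse arrays. The deposited values are log2 signals summarised by RMA, per the submitters' processing notes, and the deposited table holds 22690 probe sets. Background correction and quantile normalization across arrays belong to RMA, so levels are relative and a shift common to all genes cannot be seen. The number of arrays, and not a read depth, limits precision. Control probe sets (64) and those with several symbols (691) or no entry (1606) in GEO's platform annotation were left out, with some in more than 1 of these classes, which left 20380. The probe set with the highest mean over 48 arrays stood for each of 12393 genes.

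Groups were taken from the sample titles. Some source labels of RW mice repeat a replicate number, and titles were used to tell those animals apart. Replicates were treated as separate animals. No arrays of a group were identical (highest correlation 0.998). R 4.3.3 with limma 3.58.1 fitted 6 group means over all 48 arrays (lmFit, eBayes). P-values were adjusted by Benjamini-Hochberg over 12393 genes in each of 11 comparisons, with a call below 0.05, and the code was tested on simulated data. Figures used matplotlib 3.10.9.

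The members follow a rule on symbols, and that rule and the gene lists were chosen with earlier results of these data known. In each comparison, up to 12 called chains are named by size of difference, some main fibrillar, type IV, type VI, Col15a1 and Col18a1 chains could be named whether called or not, and, of each list of partner genes, up to 4 called in RW mice in mainstream smoke. Other chains are named to account for every member. Promoter sequences came from RefSeq for GRCm38.p6, matched by symbol. The alternatives were other probe sets, a filter on dim genes, median centring, a variance trend, array weights, arrays left out, the compared groups alone and the replicate number as a block.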

Additional observations from a re-analysis of the deposited data

Results flagged for a closer look

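Of 216 sets of 8 arrays (36 chains in 6 groups), 13 held 1 array whose gap to the nearest of the others exceeded 0.526 of the whole range. Chance gives about 1 in 20 such sets. DIO animal 7 in air, which stands apart, held 4 of them, all low, with Col13a1 at 8.60, Col4a4 at 7.76, Col6a1 at 10.72 and Col6a2 at 10.51. DIO animal 3 in air, which also stands apart, was high for Col17a1 at 8.64, the next lung being at 7.09. DIO animal 6 in mainstream smoke was low for Col8a1 at 7.17.

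Among dim chains, Col10a1 was high in RW animal 6 in air (5.73), in DIO animal 2 in air (5.96) and in RW animal 6 in sidestream smoke (5.00). Col11a2 was low in RW animal 4 in sidestream smoke at 5.25. Col25a1 was high in DIO animal 5 in air at 7.54, Col4a3 in DIO animal 7 in sidestream smoke at 9.77, and Col4a6 in RW animal 6 in air at 8.13.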

How the results depend on the processing

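Of 53 calls of a chain in a comparison, each of the dim-gene filter, median centring and the variance trend kept 53. The mean of all probe sets kept 48, array weights 48, leaving out the 5 arrays that stand apart 46, and the compared groups alone 45. Leaving out probe sets ending in _s_at, _x_at or _a_at kept 45 of the 48 measured and turned Col14a1 in RW mice in mainstream smoke to -0.0397 (adjusted p = 0.81).

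Counts of chains moved where calls were few. For DIO against RW in air (0 called) the dim-gene filter, the 5 arrays left out and the replicate block each gave 1, and single arrays left out 0 to 1. For RW in sidestream smoke (0) the 5 arrays left out and the groups alone gave 1. For DIO in sidestream smoke (3) the filter and centring gave 5, the 5 arrays left out and the groups alone 1, and single arrays 1 to 5. For DIO against RW in sidestream smoke (4) the probe set choice gave 2, array weights 10, the 5 arrays left out 7, the groups alone 8 and single arrays 1 to 6. For DIO against RW in mainstream smoke (0) single arrays gave 0 to 1.

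Counts of all genes called moved too. With array weights they were 638 for RW in sidestream smoke (269 as reported), 1295 for DIO in sidestream smoke (849), 2169 for mainstream against sidestream smoke in RW (1211), 268 and 939 for the diets in mainstream (150) and sidestream smoke (121), and 136 for the diets' response to sidestream smoke (81). Without the 5 arrays they were 581, 2116, 371 and 155 for the same comparisons where they moved (RW in sidestream smoke, mainstream against sidestream smoke in RW, the diets in sidestream smoke, the response to sidestream smoke) and 3015 for RW in mainstream smoke (1819). With the groups alone they were 312 for the diets in air (1026), 1178 for DIO in mainstream smoke (2658), 380 for DIO in sidestream smoke, 47 and 415 for the diets in mainstream and sidestream smoke, and 35 for the response to mainstream smoke (110), which was 73 with the probe set choice. Single arrays left out, chosen after seeing the data or earlier results, gave 157 to 479 genes for RW in sidestream smoke, 1388 to 2573 for mainstream against sidestream smoke in DIO (2086), 62 to 219 and 52 to 247 for the diets in mainstream and sidestream smoke, and 66 to 195 and 63 to 138 for the responses to mainstream and sidestream smoke.

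Same-numbered arrays of compared groups correlated from -0.36 to 0.46, with medians by comparison from -0.11 to 0.16. Arrays of unlike number were not set beside them, so whether the numbers mark a pairing is not settled. The numbers were not taken to pair animals. With the replicate block 51 of the 53 calls were kept, with 11 chains called in RW and 14 in DIO mice in mainstream smoke, 10 in mainstream against sidestream smoke in RW and 3 for the diets in sidestream smoke. For several dim chains the signal limits what can be seen.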
